A study of Mus musculus with 9 samples.

Results

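The genes described are the tumor necrosis factor (TNF) ligand and receptor superfamilies, chosen by symbol from the count table: Tnf, Lta, Ltb, Ltbr, Fas, Fasl and every gene named Tnfrsf, Tnfsf or Tnfaip followed by a number. This rule found 46 of the 55401 genes in the table: 15 ligands, 22 receptors, 8 Tnfaip genes and 1 transcript antisense to Tnfsf13. Of the receptors, 5 carry a death domain, 13 bind TRAF adaptors without one and 4 are decoy or orphan receptors. Tnfaip stands for TNF alpha induced protein, but Tnfaip8l1, Tnfaip8l2 and Tnfaip8l3 are named for their likeness to Tnfaip8, and the Tnfaip genes are not superfamily members by structure. RNA was sequenced from whole livers of female wild-type mice in 3 groups of 3 livers. Healthy livers came from mice labelled as having no treatment, as the baseline. Untreated HCC livers came from mice given oncogenes by hydrodynamic injection, a rapid tail-vein injection after which hepatocytes take up DNA. The plasmids carried myristoylated AKT and NRAS-V12 (RAS/AKT) with the Sleeping Beauty transposase, and a blank AAV8 vector followed at 1 week. miR-22-treated HCC livers received the same oncogenes and AAV8 carrying miR-22 under a CMV promoter, and HCC livers were harvested 5 weeks after the oncogenes, 4 weeks after the virus. The mice were 6 weeks old when obtained. The sample notes give the virus dose as 1 trillion genome copies per kg, and the study's methods give a different dose. The strain is C57BL/6 in the notes' strain field but FVB/N in their growth protocol, and the notes list a β-catenin plasmid among those used, while the methods name RAS/AKT tumors of FVB/N mice for sequencing. By that label the healthy mice had neither plasmids nor virus, so the effects of oncogenes, hydrodynamic injection and AAV8 cannot be told apart in comparisons with healthy liver.

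TNF superfamily ligands are mostly trimeric membrane proteins, some of which are shed, and they act by clustering their receptors. Receptors with a death domain can assemble caspase-activating complexes, and those that bind TRAF adaptors signal to NF-κB and MAP kinases through either the classical or the NIK-dependent route. In liver, TNF is known from Kupffer cell responses and regeneration, Fas and the TRAIL receptor from hepatocyte death, lymphotoxin from lymphoid organization, and Fn14 (Tnfrsf12a) from progenitor expansion.

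Libraries held 16664659 to 23908392 counts. The member genes together took 6107 to 6895 counts per healthy liver, 16319 to 18151 per untreated HCC liver and 8226 to 12281 per miR-22-treated liver. Values below are TMM-normalized counts, scaled to the mean effective library size of 19401057, and are given in the order of replicates 1, 2 and 3 for healthy livers and 2, 3 and 4 for both HCC groups. No library duplicated another: the chi-square per degree of freedom between replicates was 6.13 to 28.4. The labels do not state that each library is a separate mouse, and p-values measure the spread between these livers. Of the 46 members, 32 of the 15717 genes that passed the count filter were tested. The other 14 (Fasl, Lta, Tnfaip6, Tnfrsf8, Tnfrsf9, Tnfrsf13c, Tnfrsf17, Tnfsf4, Tnfsf9, Tnfsf11, Tnfsf13os, Tnfsf14, Tnfsf15 and Tnfsf18) had 0 to 19 counts in any liver. With no count filter, Tnfaip6, which encodes the hyaluronan-binding protein TSG-6, was called higher than in healthy livers in untreated HCC (edgeR's adjusted p = 0.000529) and in miR-22-treated HCC (edgeR's adjusted p = 0.0178), with 2, 0 and 0 counts in healthy livers, 16, 19 and 9 in untreated HCC and 4, 7 and 10 with miR-22. For the other 13 no difference was detectable at this depth. The filter keeps a gene that is high in 1 group alone, so the tested members are not a sample of all members.

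Comparing untreated HCC with healthy livers asks which members differ in tumor-bearing liver. By edgeR's quasi-likelihood test (adjusted p under 0.05 and fold over 1.5), 18 of the 32 tested members were higher and 3 (Tnfsf10, Tnfrsf14 and Tnfaip8l3) were lower, that is 21 called or 65.6%, where 40.8% of all tested genes were called (22.7% higher and 18.1% lower). The median log2 fold change of the tested members was 0.89, and that of all tested genes was 0.01. The groups did not overlap for 24 of the 32, beside 65.3% of all tested genes. Among the 22 members with at least 10 counts in every library, 16 were called, beside 38% of all genes under that filter. The largest rises were in Ltb, Tnfrsf10b and Tnfrsf12a. The comparison of miR-22-treated with untreated HCC asks which members differed between treated and untreated tumor-bearing livers. The study reports a lower liver-to-body weight ratio and less tumor with miR-22 in this model. The part of tumor load in the differences between these groups was not tested. With miR-22, 7 members were lower (Ltb, Tnfrsf10b, Tnfrsf12a, Tnfrsf19, Tnfaip2, Tnfaip3 and Tnfaip8) and 2 were higher (Tnfrsf1b and Tnfaip8l3). These 9 are 28.1% of the tested members, beside 13.8% of all tested genes (8.32% higher and 5.47% lower), and the median log2 fold change was -0.26 against 0.00 for all tested genes. The groups did not overlap for 13 of the 32, beside 39.3% of all tested genes. Without untreated HCC replicate 3 the count of calls fell to 4, and it was 6 without miR-22-treated replicate 2 or 3. Between miR-22-treated HCC and healthy livers, 14 members were higher and 1 (Tnfsf10) was lower, 46.9% of those tested, beside 24% of all tested genes (16.9% higher and 7.05% lower). The groups did not overlap for 19 of the 32, beside 48.8% of all tested genes. The count of calls was 9 without healthy replicate 2 and 9 of 22 with at least 10 counts in every library, where 20.9% of all genes were called. The comparisons share livers, so their values for each member are set side by side and not counted against each other.

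**Figure D1:**
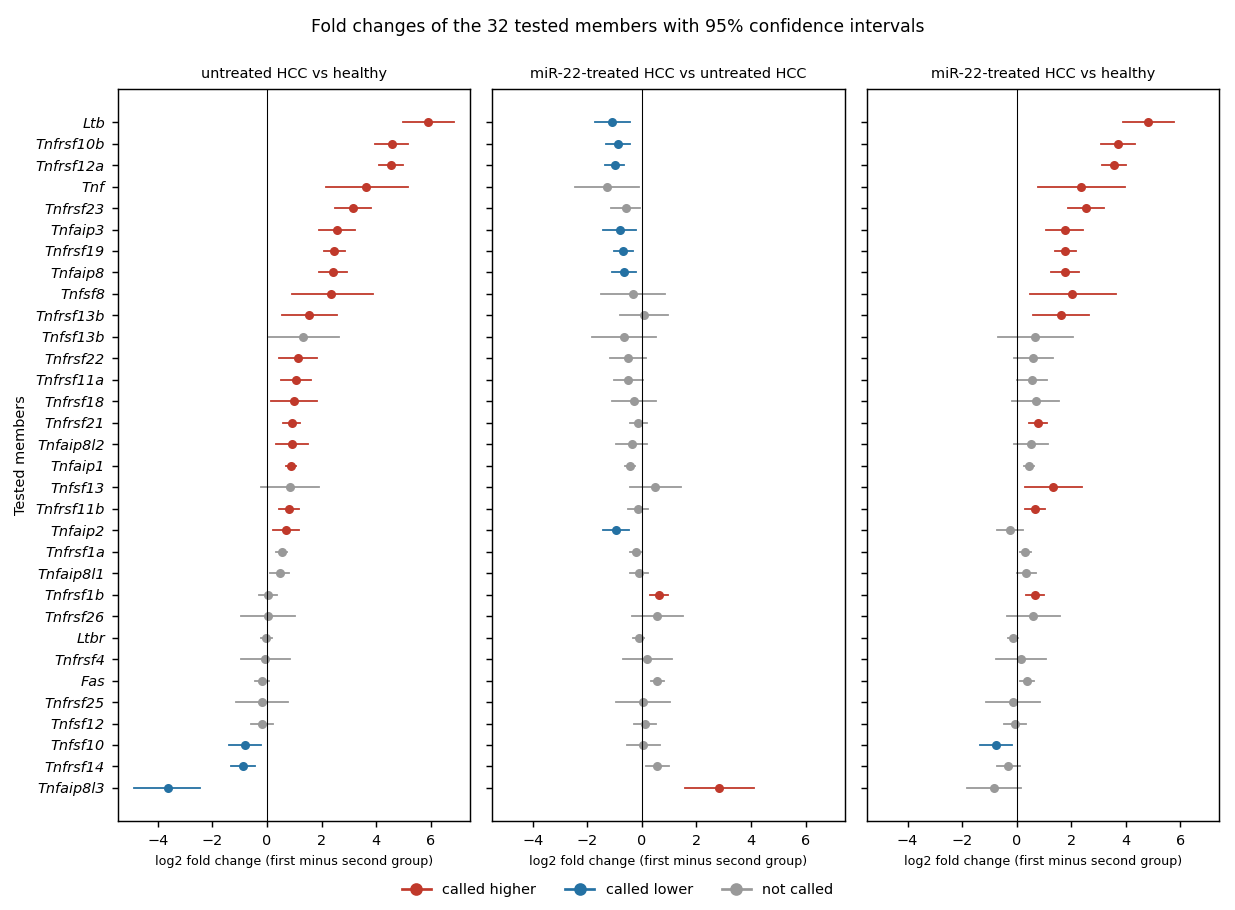
Log2 fold change of each tested member (rows) in the 3 comparisons (panels), with bars for the 95% confidence interval from edgeR, n = 3 livers per group, colored by call. Ltb, Tnfrsf10b and Tnfrsf12a lie farthest to the right against healthy liver, and Tnfaip8l3 lies far to the left in the first panel and to the right in the second.

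**Figure D2:**
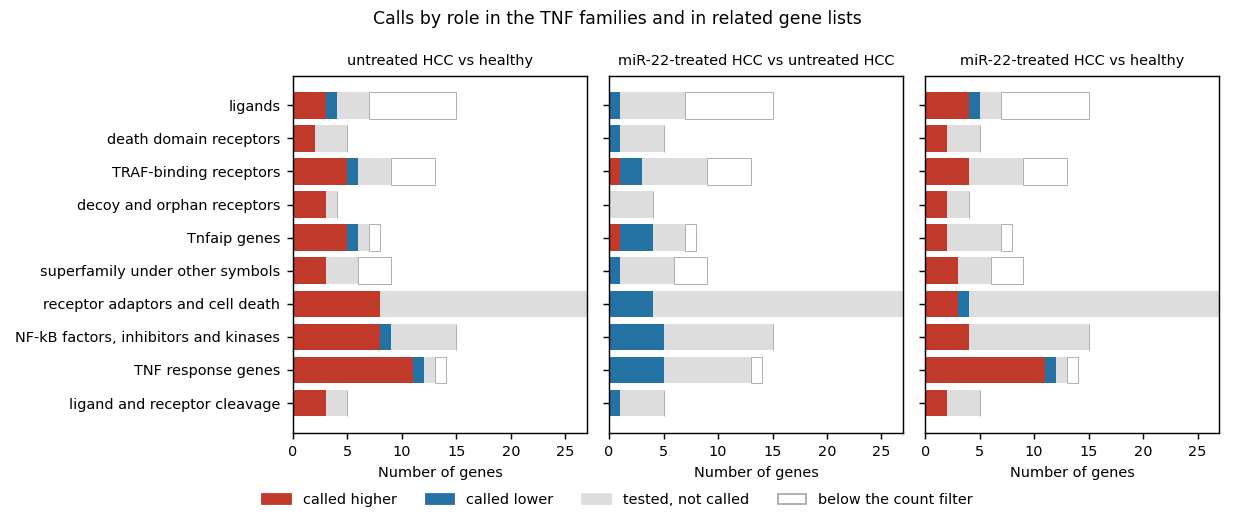
Number of genes (horizontal axis) called higher or lower, tested without a call, or below the count filter, for each role in the TNF families and for 5 lists of related genes, in the 3 comparisons. In every list with calls, calls against healthy liver were mostly higher, and calls of miR-22-treated against untreated HCC were mostly lower.

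Whole liver mixes cell types, and in these data fewer cells of a type and less RNA per cell cannot be told apart. Hepatocyte markers (Alb, Apoa1, Ttr, Cps1, Serpina1b and Tat) were detected in every liver, as the label says, with a summed level of 2342398 to 2437537 across healthy livers, 943222 to 1174417 across untreated HCC livers and 1415589 to 1759454 after miR-22, and 6 of 6 were lower in untreated HCC, beside 18.1% of all tested genes. Alb made up 82.0 to 83.1% of the healthy sum. The sum of the cholangiocyte and progenitor markers was 572 to 816 across healthy livers, 64801 to 121460 across untreated HCC livers and 30414 to 52662 after miR-22. Spp1, which encodes osteopontin, made up 97.0 to 97.1% of the untreated HCC sum, and the other 5 markers summed to 112 to 196, 1971 to 3562 and 786 to 1407 in the same order. Of the 6 markers, 5 (all but Krt19) were higher in untreated HCC than in healthy liver, beside 22.7% of all tested genes, and 4 (Sox9, Spp1, Cftr and Epcam) were lower with miR-22, beside 5.47%. Neutrophil markers summed to 34.2 to 87.8 across healthy livers, 339.9 to 445 across untreated HCC livers and 325 to 490.5 with miR-22, with 4 of 4 tested markers higher in untreated HCC and the defining marker Ly6g at 0 in healthy and untreated HCC livers. Monocyte and macrophage markers rose in 4 of 7 cases (Ccr2, Trem2, Itgam and Cd68), from a sum of 1768 to 1994 to 2412 to 2644, and stood at 2309 to 2607 with miR-22. Dendritic cell markers summed to 77.8 to 100.01, 190.02 to 299 and 273 to 294 in the same order, and 2 of 5 (Itgax and Flt3) were higher in untreated HCC. Itgax carried the higher sum of untreated HCC, and the other 4 markers summed to 64 to 79.3 across the healthy group, 63.6 to 82.6 across the untreated group and 117 to 159.6 after miR-22.

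T cell markers summed to 113 to 165 across healthy livers, 151 to 194 across untreated HCC livers and 132 to 191 after miR-22, and 1 of 7 (Cd4) was called higher in untreated HCC. B cell markers summed to 44.8 to 118, 52.7 to 95.6 and 74.3 to 96. NK cell markers summed to 56.2 to 96.4, 31.8 to 40.8 and 37.8 to 63.1, and 1 of 2 tested (Gzma) was lower in untreated HCC. Kupffer cell markers (5359 to 6967, 4389 to 5507 and 6202 to 6654) had 1 of 5 called lower in untreated HCC. Of the endothelial markers 3 of 6 were called lower in untreated HCC than in healthy liver, and of the stellate cell markers 2 were higher and 2 lower. Of all tested genes, 22.7% were higher and 18.1% lower in the same comparison. The part of these cell types in the results below was not tested.

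**Figure D3:**
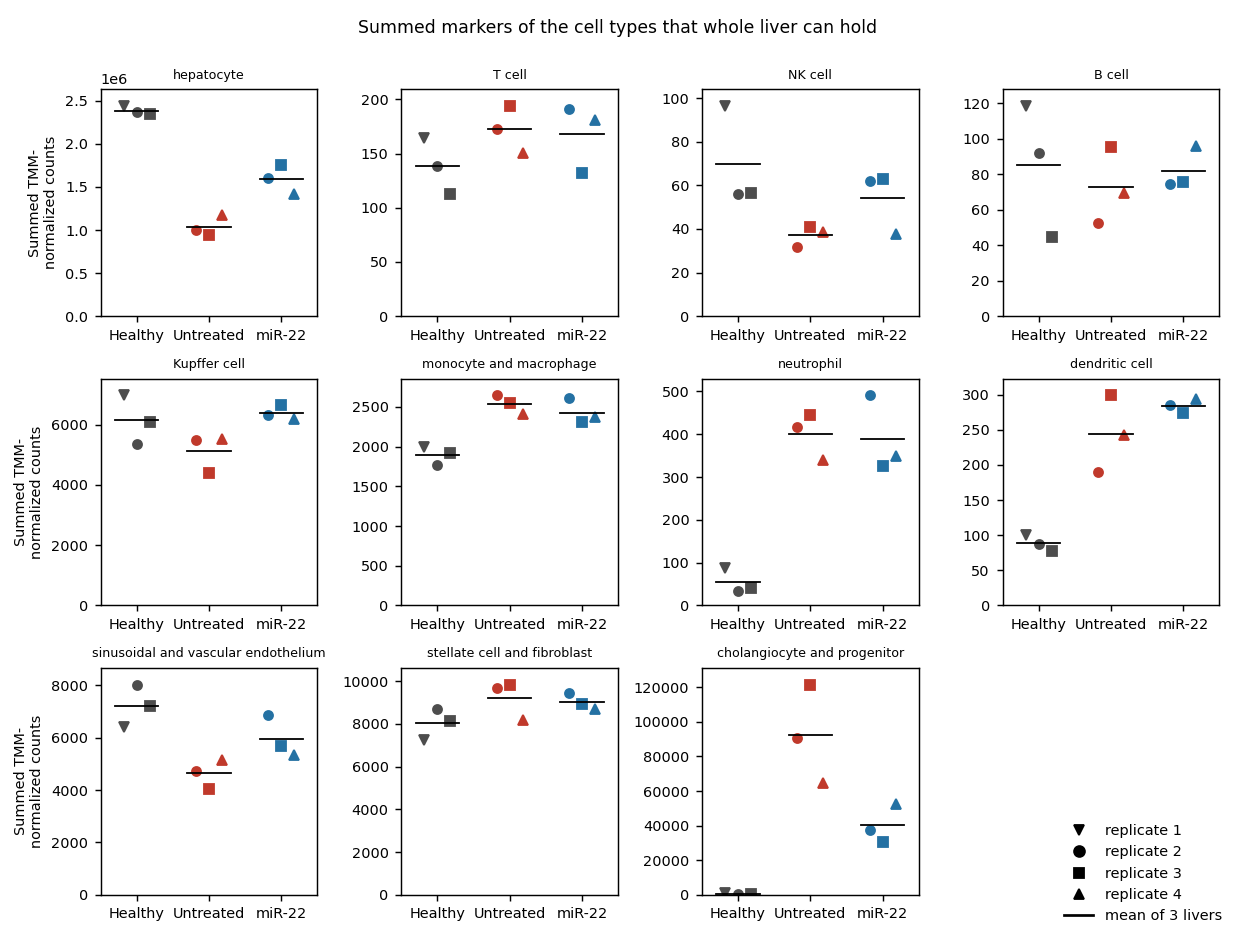
Summed TMM-normalized counts of the markers of each cell type (vertical axes, linear from 0) in each liver, by group, with the mean of 3 livers as a line. The cholangiocyte and progenitor sum, most of which was Spp1, was at most 816 in healthy livers and at least 64801 in untreated HCC, whereas T and B cell sums overlapped between untreated and miR-22-treated HCC.

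miR-22 acts by pairing its seed with messenger RNAs, mostly in their 3′ UTRs. Its mature sequence is shown because it was the delivered agent, with the seed (bases 2 to 8) in capitals, from RefSeq (GRCm38.p6, chr11:75463772-75463793, plus strand).
mmu-miR-22-3p: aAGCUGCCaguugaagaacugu
The matching 7-base site, GGCAGCT, was looked for in the 3′ UTR of each gene's canonical transcript in GENCODE M39 (GRCm39). It was in 2 of the 32 tested members (6.25%), beside 16.9% of 13550 tested genes with such a 3′ UTR, whose median length was 1341 bases against 1415.5 for the members. The sites, in capitals within the surrounding 3′ UTR, are at chr1:105774593-105774599 (plus strand) and chr3:27389948-27389954 (plus strand).
Tnfrsf11a: gtccatcccataGGCAGCTtataaaaccaa
Tnfsf10: atgtgacagaaaGGCAGCTggaactcagca
Neither gene was called when miR-22-treated HCC was compared with untreated HCC. The log2 fold change was -0.49 for Tnfrsf11a (edgeR's adjusted p = 0.159) and 0.05 for Tnfsf10 (adjusted p = 0.91). The 7 members called lower with miR-22 held no such site in this transcript. Mature miR-22 itself is not measured by these counts.

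Of the 15 ligands, 7 were tested, and 3 (Ltb, Tnf and Tnfsf8) were higher and 1 (Tnfsf10) lower in untreated HCC than in healthy liver, beside 22.7% and 18.1% of all tested genes. Ltb encodes lymphotoxin β, which anchors lymphotoxin α at the cell surface and signals through Ltbr. It lies at chr17:35413382-35415296 (GRCm39, plus strand), beside Tnf (chr17:35418357-35420983, minus strand) and Lta (chr17:35422141-35424327, minus strand). Ltb had 37.8, 18.3 and 13.9 normalized counts in the healthy livers, 1159, 2121 and 882 in untreated HCC and 650.3, 465 and 844 in miR-22-treated HCC. All 6 HCC livers were above all healthy livers, and untreated replicate 3 was far above the other untreated livers. Ltb was 59.98-fold higher in untreated HCC (log2 5.91 ± 0.427 SE, edgeR's adjusted p = 2.62e-07), the largest fold among the tested members. With miR-22 it was 2.12-fold lower than in untreated HCC (log2 -1.08 ± 0.297 SE, edgeR's adjusted p = 0.0199), with groups that did not overlap. That call was lost without untreated replicate 3 (log2 -0.64, adjusted p = 0.112), without miR-22-treated replicate 2 (adjusted p = 0.0538) or 3 (adjusted p = 0.0869),, and with DESeq2 (adjusted p = 0.0656).

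Lta, which encodes the partner that lymphotoxin β needs, had 1 count in each healthy liver, 7, 2 and 3 in untreated HCC and 2, 3 and 3 with miR-22, and did not pass the count filter. Tnf, the founding ligand, had 14.6, 0 and 2.13 normalized counts in healthy livers, 71.8, 93.8 and 43.5 in untreated HCC and 35.5, 14.8 and 34.1 with miR-22. Healthy replicate 1 was just below the lowest miR-22-treated liver, and the groups did not overlap, with untreated HCC highest. Tnf was 12.4-fold higher in untreated HCC than in healthy liver (log2 3.64 ± 0.688 SE, edgeR's adjusted p = 0.000582). This fold rests on healthy replicate 1, which had 12 counts beside 0 and 2 in the other healthy livers. Without it the healthy group was under the floor of 3 counts per library and no fold is given, but Tnf was still called higher in untreated HCC (adjusted p = 9.42e-05) and in miR-22-treated HCC (adjusted p = 0.0024). Against untreated HCC the miR-22-treated livers had a log2 fold change of -1.28 (95% confidence interval -2.46 to -0.12), which did not pass (edgeR's adjusted p = 0.105). It passed without healthy replicate 1 (adjusted p = 0.0415), without the count filter, and in a fit of these 2 groups alone. Against healthy livers, miR-22-treated HCC was 5.11-fold higher (edgeR's adjusted p = 0.0241), a call lost when any of 4 livers was left out (healthy replicates 2 and 3, miR-22-treated replicates 2 and 4; adjusted p = 0.0614 to 0.093). Per kilobase of exon, Ltb and Tnf in untreated HCC stood at 896 and 42.5 normalized counts.

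Tnfsf10 encodes TRAIL, a ligand that can start cell death. It had 413, 412 and 334 normalized counts in healthy livers, 189, 222 and 250.03 in untreated HCC and 348, 219 and 124 with miR-22, so the miR-22-treated livers overlapped both other groups. It was 1.75-fold lower in untreated HCC than in healthy liver (log2 -0.81 ± 0.269 SE, edgeR's adjusted p = 0.0217), and this call was lost without healthy replicate 1 or 2 or untreated replicate 2 or 3 (adjusted p = 0.0559 to 0.0798). The lower call of miR-22-treated HCC against healthy livers (edgeR's adjusted p = 0.0467) was lost in 8 of the 9 fits with 1 liver left out, all but the one without miR-22-treated replicate 2 (adjusted p = 0.0506 to 0.117 in the 8). It was also lost with at least 10 counts in every library (edgeR's adjusted p = 0.0581) and in a fit of the 2 groups compared alone (edgeR's adjusted p = 0.0648).

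Tnfsf8, the CD30 ligand, had 0, 3.67 and 4.26 normalized counts in healthy livers, 16.4, 15.6 and 10.9 in untreated HCC and 15.5, 12.4 and 6.46 with miR-22, and was 5.07-fold higher in untreated HCC (edgeR's adjusted p = 0.01). Its higher call in miR-22-treated HCC against healthy livers (edgeR's adjusted p = 0.041) was lost in 8 of 9 fits with 1 liver left out, all but the one without miR-22-treated replicate 4 (adjusted p = 0.0526 to 0.128). Tnfsf13, which encodes the B cell factor APRIL, had 15.9, 11 and 4.26 in healthy livers, 22.7, 11.3 and 21 in untreated HCC and 26.6, 19.8 and 30.5 with miR-22. It was called only against healthy livers after miR-22 (log2 1.33, edgeR's adjusted p = 0.0464), and that call was lost in 7 of 9 fits with 1 liver left out, all but those without healthy replicate 1 or untreated replicate 3 (adjusted p = 0.053 to 0.169). The Tnfsf13 call was also lost with DESeq2 (adjusted p = 0.0637) and in a fit of the 2 groups compared alone (edgeR's adjusted p = 0.0545). Tnfsf13 shares 1252 exon bases with the annotated readthrough gene Tnfsfm13. Tnfsf12, which encodes TWEAK, the ligand of Fn14, was not called in any comparison, with group means of 129 ± 21.3 (SD, n = 3) in healthy livers, 113 ± 8.52 (SD, n = 3) in untreated HCC and 123 ± 22.1 (SD, n = 3) with miR-22. Tnfsf13b, which encodes BAFF, had 2 to 24 counts and was not called (log2 1.33 in untreated HCC against healthy livers, edgeR's adjusted p = 0.0674). Fasl, which encodes the Fas ligand, had 3, 2 and 1 counts in healthy livers, 0, 4 and 14 in untreated HCC and 5, 3 and 4 with miR-22, and did not pass the count filter.

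**Figure D4:**
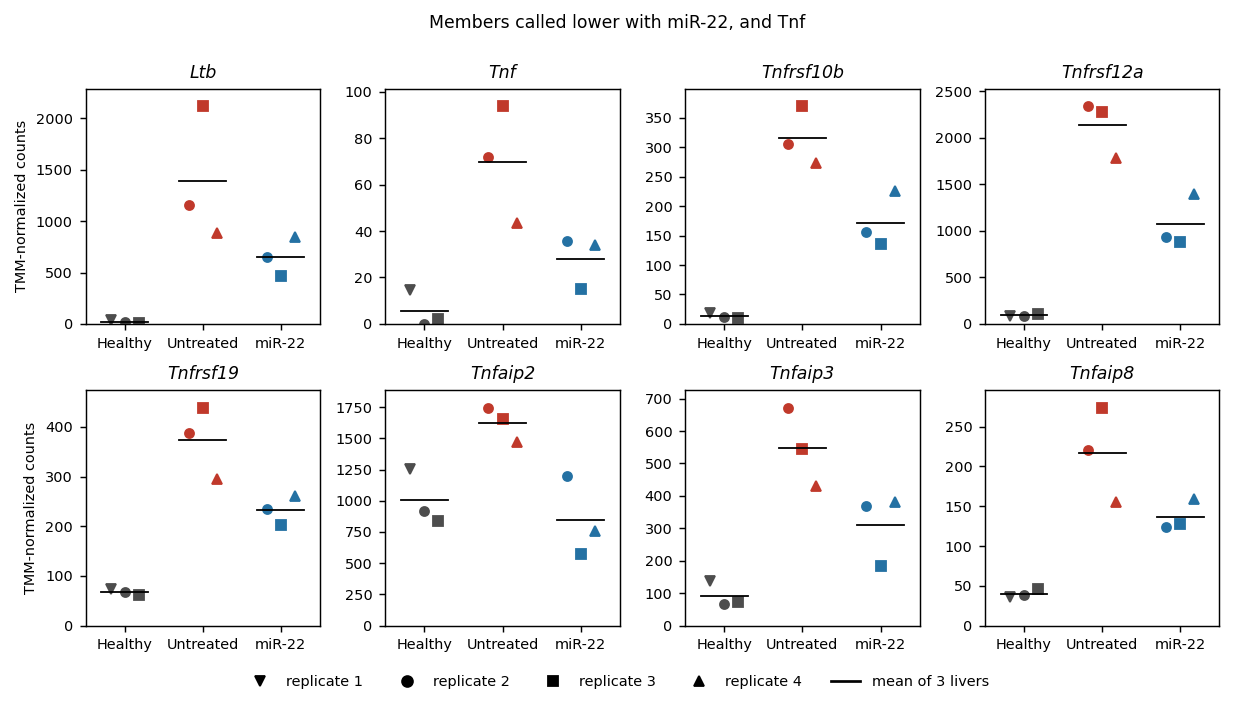
TMM-normalized counts (vertical axes, linear from 0) of the 7 members called lower with miR-22 and of Tnf in each liver, by group, with the mean of 3 livers as a line. Untreated HCC replicate 3 was highest for Ltb (2121), Tnf, Tnfrsf10b, Tnfrsf19 and Tnfaip8, and miR-22-treated livers lay below the untreated livers except for Tnfaip8, where they overlapped.

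All 5 death domain receptors were tested. Tnfrsf10b, which encodes the TRAIL receptor DR5 (chr14:70004916-70021860, plus strand), had 18.3, 11 and 10.7 normalized counts in healthy livers, 305, 370.1 and 272 in untreated HCC and 155, 136 and 225 with miR-22. The 3 groups did not overlap, with untreated HCC highest and healthy livers lowest. It was 23.7-fold higher in untreated HCC than in healthy liver (log2 4.56 ± 0.278 SE, edgeR's adjusted p = 7.42e-08) and 1.82-fold lower with miR-22 than in untreated HCC (log2 -0.87 ± 0.203 SE, edgeR's adjusted p = 0.00894). The second call was lost without untreated replicate 3 (adjusted p = 0.0526). After miR-22 it was still 13-fold above healthy livers (edgeR's adjusted p = 1.32e-06). Its ligand gene Tnfsf10 was lower in untreated HCC, as given above.

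Fas, the death receptor of the Fas ligand, had 534, 407 and 490.3 normalized counts in healthy livers, 466, 391 and 404 in untreated HCC and 628, 598 and 647 with miR-22. The miR-22-treated livers were above all other livers. The rise over untreated HCC was 1.49-fold (log2 0.57 ± 0.115 SE, edgeR's adjusted p = 0.00421), just under the fold of 1.5 needed for a call. It passed that fold without untreated replicate 2 (log2 0.65, adjusted p = 0.00871) or miR-22-treated replicate 3 (log2 0.60, adjusted p = 0.012). Tnfrsf1a, which encodes TNFR1, the main receptor for soluble TNF, had 1014, 1106 and 906 in healthy livers, 1552, 1353 and 1475 in untreated HCC and 1284, 1209 and 1243 with miR-22. The groups did not overlap, with untreated HCC highest, but the 1.45-fold difference from healthy livers was under the fold needed (edgeR's adjusted p = 0.000307). It passed that fold without healthy replicate 2 (log2 0.60) or untreated replicate 3 (log2 0.59).

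Tnfrsf21, which encodes DR6, had 198, 172 and 148 normalized counts in healthy livers, 338, 317 and 312 in untreated HCC and 345, 293 and 247 with miR-22. Both HCC groups were above every healthy liver and overlapped each other. The fold over healthy livers was 1.87 in untreated HCC (edgeR's adjusted p = 0.000211) and 1.71 with miR-22 (adjusted p = 0.00164). Tnfrsf25, the receptor DR3 of lymphocytes, had 8 to 25 counts and was not called in any comparison. Per kilobase of exon, the order of the death domain receptors in healthy livers was Tnfrsf1a (320.3 normalized counts), Fas (206), Tnfrsf21 (39.3), Tnfrsf25 (6.23) and Tnfrsf10b (2.34). In untreated HCC, Tnfrsf10b stood at 55.5 on this scale, below Tnfrsf21 at 73.3.

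**Figure D5:**
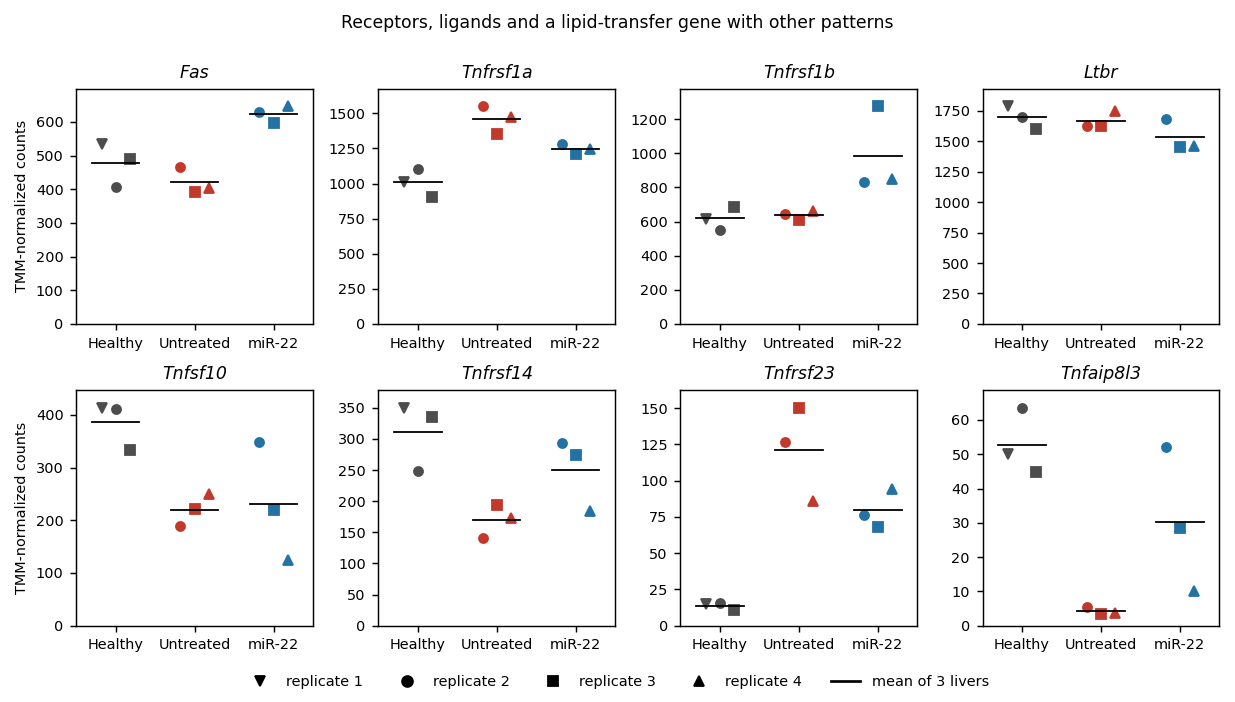
TMM-normalized counts (vertical axes, linear from 0) of 8 members with other patterns in each liver, by group, with the mean of 3 livers as a line. Fas was highest in miR-22-treated livers, Ltbr overlapped in all groups, Tnfsf10 and Tnfaip8l3 were spread widely in miR-22-treated livers, and replicate 2 was the highest of these for both.

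Of the 13 receptors that bind TRAF adaptors without a death domain, 9 were tested, and 5 were higher and 1 lower in untreated HCC, beside 22.7% and 18.1% of all tested genes. Tnfrsf12a encodes Fn14, the TWEAK receptor. It had 85.4, 81.9 and 104 normalized counts in healthy livers, 2341, 2277 and 1785 in untreated HCC and 939, 885 and 1394 with miR-22, with no overlap between the 3 groups. The rise in untreated HCC was 23.4-fold (log2 4.55 ± 0.201 SE, edgeR's adjusted p = 9.55e-09). With miR-22 it fell 1.99-fold from untreated HCC (log2 -0.99 ± 0.162 SE, edgeR's adjusted p = 0.00129) and was 11.8-fold above healthy livers (adjusted p = 1.13e-07). All 3 calls passed with every liver left out in turn. Per kilobase of exon it had 1086 normalized counts in untreated HCC, beside 60.5 for its ligand gene Tnfsf12. The libraries do not record strand, and all 1965 exon bases of Tnfrsf12a (chr17:23894416-23896468, minus strand) overlap Hcfc1r1 on the other strand. Hcfc1r1 moved in the opposite direction, with a log2 fold change of -1.10 in untreated HCC against healthy livers and 0.64 with miR-22.

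Tnfrsf19, which encodes the orphan receptor TROY, had 74.4, 67.2 and 61.8 normalized counts in healthy livers, 388, 439 and 296 in untreated HCC and 235, 203 and 261 with miR-22. The groups did not overlap, in the same order as for Tnfrsf12a. It was 5.51-fold higher in untreated HCC (edgeR's adjusted p = 2.67e-07) and 1.60-fold lower with miR-22 (log2 -0.68 ± 0.159 SE, edgeR's adjusted p = 0.00898), the latter lost without untreated replicate 3 (adjusted p = 0.0526). Among the cholangiocyte and progenitor markers, Sox9, Spp1, Cftr and Epcam were likewise higher in untreated HCC and lower with miR-22, as were Tnfrsf12a, Tnfrsf10b and Ltb, whereas Krt19 (log2 0.89 and -0.01) was not called in either comparison and Krt7 (log2 -0.88) was not called with miR-22. Without Spp1 their sum was 112 to 196 across the healthy group, 1971 to 3562 across the untreated group and 786 to 1407 after miR-22, and their part in these members' values was not tested.

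Tnfrsf1b and Ltbr did not follow this order. Tnfrsf1b encodes TNFR2, which responds best to membrane-bound TNF. It had 617, 551 and 686 normalized counts in healthy livers, 643, 612 and 660.2 in untreated HCC and 832, 1277 and 849.97 with miR-22. Healthy and untreated HCC livers overlapped, and all miR-22-treated livers were above them, with replicate 3 far above the others. It was 1.54-fold higher with miR-22 than in untreated HCC (log2 0.63 ± 0.149 SE, edgeR's adjusted p = 0.00995) and 1.59-fold higher than in healthy liver (adjusted p = 0.0041). Without miR-22-treated replicate 3 the log2 fold changes were 0.40 and 0.44, and without healthy replicate 2 the second was 0.58, all under the fold needed. Upper-quartile scaling also took the first under that fold. Ltbr, the lymphotoxin β receptor, had 1697 ± 95.8 (SD, n = 3) in healthy livers, 1666 ± 72.2 (SD, n = 3) in untreated HCC and 1533 ± 131 (SD, n = 3) with miR-22, and no comparison was called (log2 -0.03 with a 95% confidence interval of -0.22 to 0.17 in untreated HCC against healthy livers). Per kilobase of exon, Ltbr stood at 709, 697 and 641 in the 3 groups while its ligand gene Ltb stood at 15.1, 896 and 422.

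Tnfrsf14, which encodes HVEM, the receptor of LIGHT and of the inhibitory receptor BTLA, was the 1 tested receptor called lower in untreated HCC. It had 350.04, 248 and 336 normalized counts in healthy livers, 140.01, 195 and 172 in untreated HCC and 294, 275 and 184 with miR-22, and was 1.84-fold lower in untreated HCC than in healthy liver (edgeR's adjusted p = 0.00203). The miR-22-treated livers overlapped both other groups, and their log2 fold change of 0.56 over untreated HCC did not pass (edgeR's adjusted p = 0.0565), although it did without miR-22-treated replicate 4 (log2 0.75, adjusted p = 0.00899). Tnfrsf11a, which encodes RANK, had 34.1, 30.6 and 27.7 in healthy livers, 55.5, 75.6 and 60.2 in untreated HCC and 51, 37.1 and 47.1 with miR-22, and was 2.07-fold higher in untreated HCC (edgeR's adjusted p = 0.00321).

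Among the lymphocyte receptors that passed the filter, Tnfrsf13b, which encodes TACI of B cells, had 15.9, 7.33 and 3.20 normalized counts in healthy livers, 24.5, 24.3 and 26.8 in untreated HCC and 32.2, 24.7 and 23.1 with miR-22. It was 2.90-fold higher in untreated HCC (edgeR's adjusted p = 0.0129), lost without healthy replicate 2 or 3 (adjusted p = 0.0502 to 0.0554), and 3.05-fold higher with miR-22 than in healthy liver (adjusted p = 0.0177), lost without these or miR-22-treated replicate 2 (adjusted p = 0.0588 to 0.0687). Without healthy replicate 1 these folds were 4.75 and 4.997. B cell markers summed to 44.8 to 118 across healthy livers and 52.7 to 95.6 across untreated HCC livers. Tnfrsf18, which encodes GITR of regulatory T cells, had 37.8, 13.4 and 39.4 in healthy livers, 68.2, 61.7 and 52.2 in untreated HCC and 59.9, 27.2 and 59.99 with miR-22. Its rise in untreated HCC (1.99-fold, edgeR's adjusted p = 0.0432) was lost without healthy replicate 2, any of the 3 untreated livers or miR-22-treated replicate 2 (adjusted p = 0.051 to 0.153). Tnfrsf4, which encodes OX40, had 8 to 18 counts and was not called in any comparison.

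Of the 4 decoy and orphan receptors, most of which bind a ligand without passing on its signal, 3 were higher in untreated HCC, beside 22.7% of all tested genes, and none was called lower or higher with miR-22 than in untreated HCC, beside 5.47% and 8.32%. The genes Tnfrsf26, Tnfrsf22 and Tnfrsf23 lie in a row at chr7:143161396-143239611 and are close in sequence, so the split of reads between them is uncertain. Tnfrsf23, a decoy receptor for TRAIL, had 14.6, 15.9 and 10.7 normalized counts in healthy livers, 126, 150.3 and 86.2 in untreated HCC and 76.6, 68 and 94.1 with miR-22. All HCC livers were above all healthy livers, with folds of 8.78 in untreated HCC (edgeR's adjusted p = 2.28e-06) and 5.82 with miR-22 (adjusted p = 4.9e-05), and it was called lower with miR-22 than in untreated HCC only when untreated replicate 4 was left out (log2 -0.79, adjusted p = 0.0327). Tnfrsf22, the other TRAIL decoy, had 36.6, 56.2 and 39.4 in healthy livers, 81.8, 135 and 73.9 in untreated HCC and 79.9, 80.4 and 43.4 with miR-22, and was 2.19-fold higher in untreated HCC (edgeR's adjusted p = 0.00845). Tnfrsf26 had 8 to 27 counts and was not called in any comparison. Tnfrsf11b, which encodes osteoprotegerin, a secreted trap for RANKL, had 121, 126 and 114 in healthy livers, 196, 179 and 255 in untreated HCC and 199.7, 162 and 209 with miR-22. Its folds over healthy livers were 1.75 in untreated HCC (edgeR's adjusted p = 0.00127) and 1.59 with miR-22 (adjusted p = 0.0091).

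Of the 8 Tnfaip genes, 7 were tested, and 5 were higher and 1 lower in untreated HCC than in healthy liver, beside 22.7% and 18.1% of all tested genes. Tnfaip3 encodes A20, a ubiquitin-editing enzyme that limits NF-κB signaling. It had 137, 67.2 and 73.5 normalized counts in healthy livers, 672, 544 and 431 in untreated HCC and 368, 183 and 381 with miR-22. The 3 groups did not overlap, and the rise in untreated HCC was 5.95-fold (log2 2.57 ± 0.308 SE, edgeR's adjusted p = 1.52e-05). The lower level with miR-22 (1.75-fold, log2 -0.81) passed narrowly (edgeR's adjusted p = 0.0492) and was lost in 6 of 9 fits with 1 liver left out (healthy 2 and 3, untreated 2 and 3, miR-22-treated 2 and 3; adjusted p = 0.0554 to 0.185). Tnfaip2, which encodes a protein of membrane protrusions, had 1253, 920.4 and 835 in healthy livers, 1745, 1652 and 1474 in untreated HCC and 1199.5, 572 and 755 with miR-22. It was 1.93-fold lower with miR-22 than in untreated HCC (log2 -0.95 ± 0.219 SE, edgeR's adjusted p = 0.00857), a call that passed with each liver left out in turn. Its rise in untreated HCC over healthy livers (1.62-fold, edgeR's adjusted p = 0.0158) was lost without healthy replicate 2 or 3 or untreated replicate 2 (adjusted p = 0.0524 to 0.0744). Against healthy livers it was not called after miR-22, but it was lower without miR-22-treated replicate 2 (log2 -0.60, adjusted p = 0.0188).

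The TIPE family moved in both directions. Tnfaip8, a regulator of cell survival, had 36.6, 37.9 and 45.8 normalized counts in healthy livers, 220.02, 274 and 156 in untreated HCC and 124, 127 and 159 with miR-22. It was 5.36-fold higher in untreated HCC (edgeR's adjusted p = 2.66e-06). With miR-22 it was 1.57-fold lower (log2 -0.66, edgeR's adjusted p = 0.0372), with groups that overlapped, and this was lost in 5 of 9 fits with 1 liver left out (healthy 2, untreated 2 and 3, miR-22-treated 2 and 3; adjusted p = 0.0504 to 0.186). The lower call of Tnfaip8 with miR-22 was also lost in a fit of the 2 groups compared alone (edgeR's adjusted p = 0.058). Tnfaip8l3, which encodes the phosphoinositide transfer protein TIPE3, had 50.01, 63.6 and 44.8 in healthy livers, 5.46, 3.47 and 3.62 in untreated HCC and 52.2, 28.5 and 10.2 with miR-22. The untreated livers had only 4 to 6 counts each, below every other liver, and the miR-22-treated livers ran from near that level to the healthy range. It was 12.4-fold lower in untreated HCC than in healthy liver (log2 -3.63 ± 0.565 SE, edgeR's adjusted p = 0.000124) and 7.03-fold higher with miR-22 than in untreated HCC (log2 2.81 ± 0.584 SE, edgeR's adjusted p = 0.00453), or 4.42-fold without miR-22-treated replicate 2. Against healthy livers the miR-22-treated livers were not called, except without replicate 2 (log2 -1.50, adjusted p = 0.0288). The hepatocyte markers followed the same order of groups as Tnfaip8l3, and their part in it was not tested.

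Tnfaip8l2, which encodes the immune regulator TIPE2, had 22, 28.1 and 26.6 normalized counts in healthy livers, 52.7, 49.5 and 41.3 in untreated HCC and 33.3, 44.5 and 33.2 with miR-22, and was 1.86-fold higher in untreated HCC (edgeR's adjusted p = 0.0129). It shares 1489 exon bases with Lysmd1 on the other strand, which was not called. Tnfaip1, an adaptor of a ubiquitin ligase, had 792, 797 and 813 in healthy livers, 1607, 1419 and 1410.3 in untreated HCC and 1036, 1076 and 1158 with miR-22, with no overlap between groups. It was 1.85-fold higher in untreated HCC (edgeR's adjusted p = 2.4e-06), and with miR-22 its log2 fold change of -0.44 from untreated HCC (edgeR's adjusted p = 0.00302) was under the fold needed. It shares 1393 exon bases with Poldip2, which was lower in untreated HCC (log2 -0.59). Tnfaip8l1 was not called (log2 0.46 in untreated HCC against healthy livers, edgeR's adjusted p = 0.0245), being under the fold needed. Tnfaip6, which encodes the matrix protein TSG-6, had 2, 0 and 0 counts in healthy livers, 16, 19 and 9 in untreated HCC and 4, 7 and 10 with miR-22 and was below the filter.

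Because several members higher in untreated HCC are known NF-κB targets, κB motifs were looked for in RefSeq promoter windows (GRCm38.p6, 250 bases before to 50 after the start), which were given for 37 of the 46 members. The motif searched was GGG and TTCC with any 3 bases between, on both strands, and it was in 6 of 42 member promoters (14.3%) and in 5.56% of 32851 promoters. In the promoters of members higher in untreated HCC it was in 3 of 16, belonging to Ltb and Tnfaip3, and it was also found in Tnfaip8l1, Tnfrsf25 and Tnfrsf9, which were not called or not tested. The Ltb match and 2 of the Tnfaip3 matches, from its separate start sites, are shown because both genes rose, with the motif in capitals, at chr17:35194410-35194439 (plus strand), chr10:19012034-19012063 (minus strand) and chr10:19015403-19015432 (minus strand).
Ltb promoter: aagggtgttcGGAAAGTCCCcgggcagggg
Tnfaip3 promoter, downstream start site: ctgaaaacgtGGGTTATTCCcctcctcctc
Tnfaip3 promoter, upstream start site: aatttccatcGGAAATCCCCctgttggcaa
The AP-1 motif TGANTCA was in 9 of 42 member promoters (21.4%) and 7.81% of all, but in 1 of the 16 promoters of members higher in untreated HCC. These are letter matches and not bound sites, and a window without a match says nothing of more distant sites.

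Genes that work with the families were taken from lists chosen by hand. Of 9 superfamily genes with other symbols, 6 were tested and 3 were higher in untreated HCC, beside the 22.7% of all genes: Eda2r, a receptor for ectodysplasin (log2 5.50), Cd40 (log2 3.36) and Relt (log2 2.09). Eda2r was also lower with miR-22 than in untreated HCC (log2 -0.65, edgeR's adjusted p = 0.0329). Among 27 adaptors and cell death genes, 8 were higher (29.6%, beside 22.7% of all tested genes) and none lower in untreated HCC, with a median log2 fold change of 0.09. The smallest p-values were those of Tnip1, which works with A20 (log2 2.03), the necroptosis executor Mlkl (log2 1.46) and the NIK regulator Traf3 (log2 1.14). With miR-22, 4 of the 27 were lower than in untreated HCC (Tnip1, -0.75; Traf3, -0.64; Traf2, -0.66; and Ripk3, -0.65 on the log2 scale) and none was higher, beside 5.47% and 8.32% of all tested genes. Of 5 genes that cleave or release ligands and receptors, Rhbdf1 (log2 2.17), Rhbdf2 (1.88) and Adam10 (0.78) were higher in untreated HCC, beside the same 22.7%, and Furin (-0.54) and Adam17 (0.06) were not called. Rhbdf2, a cofactor of TNF shedding, was lower with miR-22 (log2 -0.78, edgeR's adjusted p = 0.00532).

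The NF-κB list, of factors, inhibitors and kinases, had 8 of 15 genes higher and 1 lower in untreated HCC, beside 22.7% and 18.1% of all tested genes, with a median log2 fold change of 0.71. Relb (3.58 on the log2 scale, edgeR's adjusted p = 2.42e-07) and Nfkb2 (2.03, adjusted p = 2.5e-07), the pair of the NIK-dependent route downstream of receptors such as Ltbr, Fn14 and CD40, had the smallest p-values, followed by the co-regulator Bcl3 (1.39). Chuk, which encodes the kinase IKKα, was lower (log2 -0.76). With miR-22, 5 of 15 were lower than in untreated HCC and none higher, beside 5.47% and 8.32% of all tested genes: Bcl3 (log2 -0.89), Nfkb2 (-0.74), Nfkbie (-1.14), Relb (-0.96) and Map3k14 (-0.62), the gene for NIK. Of 13 tested genes known to respond to TNF, 11 were higher and 1 (Sod2, log2 -1.18) lower in untreated HCC, beside the same 22.7% and 18.1%, and the adhesion genes Vcam1 (log2 2.68) and Icam1 (2.27) and the cytokine Lif (6.25) had the smallest p-values. Cxcl5 had 0 counts in every healthy liver and was at least 12.1-fold higher in untreated HCC, from the limit that 3 counts per library set. Cxcl2 had 2, 0 and 0 counts in healthy livers and 66, 80 and 69 in untreated HCC, and Sele had 0, 0 and 1 beside 19, 19 and 22. With miR-22, 5 of the 13 were lower than in untreated HCC and none higher, beside 5.47% and 8.32%: Icam1 (log2 -0.81), Lif (-1.32), Socs3 (-0.96), Jag1 (-1.02) and Cxcl2 (-1.26). Neutrophil and macrophage marker sums overlapped between untreated and miR-22-treated HCC, at 339.9 to 445 and 325 to 490.5 for neutrophils. The cholangiocyte and progenitor sum, most of which was Spp1, did not overlap, with or without Spp1, although Krt19 on its own did. The part of these cell types in these lists was not tested.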

How the data were processed

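Per the study's methods, RNA from RAS/AKT-induced HCCs and from healthy livers was made into libraries without strand information and sequenced as read pairs. Reads were checked with FastQC (0.11.7 in the submitters' processing notes), assigned to GRCm39 transcripts with Salmon and summed per gene with tximport. The authors deposited gene counts as whole numbers, and these counts were used. Their table normalized by DESeq2 (1.18 in the notes) was not used here. All deposited sample columns were used.

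The test was the two-sided quasi-likelihood F test of edgeR 4.0.16 (R 4.3.3; TMM, filterByExpr, all 3 groups fitted together without covariates), with Benjamini-Hochberg adjustment over the 15717 genes tested. A gene was called at adjusted p under 0.05 and fold over 1.5. Library totals were between 18258660 and 20964551 counts (healthy), 18293676 and 23908392 (untreated HCC) and 16664659 and 20459853 (miR-22-treated HCC), and 3 counts per library were taken as the detection floor, which covers counting error only. On simulated counts for the first comparison (15362 genes), 94 of 99 genes changed 4-fold and 81 of 101 changed 2-fold were found, with 7 false calls. The simulation gave every gene the same spread (common dispersion 0.0206) and changed only 200 genes, where 40.8% of tested genes were called in the data. Its rates therefore do not carry over to members whose livers vary more, such as Ltb and Tnf. Same-numbered untreated and miR-22-treated livers had deviations correlated at -0.12 to -0.24, so the numbers were not taken as pairs.

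Members called in any comparison with at least 10 counts in every library of their highest group, and Tnf, Fas, Fasl, Tnfrsf1a and Tnfrsf1b, are given for each liver. From each related list up to 3 called genes with the smallest p per comparison are named, and others in a short list of calls were named after their values were seen. The members, lists and rules were chosen with earlier results of these data known. Alternatives were DESeq2 1.42.0, DESeq2 size factors, upper-quartile factors, no filter, at least 10 counts in every library, a fit to the 2 groups compared, no fold threshold, the replicate number as a block, and each liver left out. Positions and exon lengths came from GENCODE M39 (GRCm39), and promoters and miRNA sequences from RefSeq (GRCm38.p6). The exon length of a gene was the union of the exons of all its annotated transcripts. Values per kilobase of exon therefore depend on how many transcripts are annotated, and not on those expressed in these livers. Figures were drawn with Python 3.11.15 and matplotlib 3.10.9. Not every cell type marker's own test is reported here.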

Additional observations from a re-analysis of the deposited data

How the results depend on the processing

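Of 1328 values for single members under the alternatives, 1214 kept their direction and side of the thresholds, 90 lost a call, 17 gained one and 7 changed sign, none of the 7 being called. For untreated HCC against healthy livers the number of members called (21) was 16 to 23, and 18 to 22 with 1 liver left out. For miR-22-treated against untreated HCC (9) it was 4 to 10 with 1 liver left out, lowest without untreated replicate 3, and 7 to 11 under the other alternatives except the replicate block. For miR-22-treated HCC against healthy livers (15) it was 9 with at least 10 counts in every library, where 22 members were tested instead of 32, 9 to 14 with 1 liver left out, lowest without healthy replicate 2, and 11 to 18 otherwise. With the replicate number as a replicate block, fitted to the 2 groups compared, the counts were 22, 2 and 11, and with a block over all 9 libraries, an alternative chosen after seeing the data, 18, 6 and 12. The labels do not say what the numbers mean, and whether same-numbered livers share a batch is not known. Sign changes were in Tnfrsf1b for untreated HCC against healthy livers (log2 -0.0388 without healthy replicate 2, -0.0388 to 0.117 with 1 liver left out), and for miR-22-treated against untreated HCC in Tnfrsf11b (0.0224 without untreated replicate 4, range -0.250 to 0.0224), Tnfrsf13b (-0.0838 without miR-22-treated replicate 2, range -0.0838 to 0.175) and Tnfsf10 (-0.0461 with the replicate block and -0.0373 with the block over all libraries, -0.0427 without untreated replicate 2, range -0.383 to 0.366, lowest without miR-22-treated replicate 2). The cause of these changes was not tested. Other scalings moved the median of all genes by under 0.1 on the log2 scale. Members with under about 10 counts in a liver had the widest intervals, and depth limits what can be said of them.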
